A study of Gallus gallus with 6 samples.

Results

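Genes of the cytokine response pathway, 9 in all, were followed in the regenerating chick auditory epithelium: SOCS1, SOCS2, SOCS3, JAK1, JAK2, STAT3, IRF1, IRF8 and CEBPB. They were taken by gene name from the deposited gene table, which lists 25619 genes, and all 9 names were found once each. In cytokine signalling, a ligand brings receptor chains together, the Janus kinases (JAKs) bound to them phosphorylate STAT proteins, and the STATs enter the nucleus and switch on genes. Among those genes are the SOCS inhibitors, which block the kinases or the receptors and mark them for degradation, so the pathway limits itself. Interferon regulatory factors (IRFs) and CEBPB are transcription factors that carry interferon, interleukin and injury responses further, and STAT3 with SOCS3 is best known in sensory epithelia as an early response to damage.

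The tissue was the basilar papilla, the auditory sensory epithelium of the bird cochlea, in which lost hair cells are replaced by supporting cells. Cochlear ducts of Gallus gallus chicks at post-hatch day 1 were kept as explants in medium with 1% serum, and every duct received streptomycin (SM), an antibiotic that kills hair cells, for 48 h. The first group, 3 libraries, came from explants that were then given BQ788, an inhibitor of the endothelin receptor EDNRB, and are called SM plus BQ788 here. The 3 others had SM without BQ788 and are called SM control. All 6 carry the label day 3, and RNA was taken from epithelium freed with thermolysin. The sources used here do not give the dose and duration of BQ788, the sex of the chicks or the number of ducts per library. Nothing says that the replicates came from separate animals, so each p-value reflects the spread among these libraries, which may be technical. No library without SM was analysed here, so the values compare BQ788 with no BQ788 after damage and do not show the response to damage itself.

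Values are the authors' FPKM, reads adjusted for each gene's length and by 1 scale per library, and are given below in the order of replicates 1, 2 and 3. The scale was not the plain total of recovered reads: the total it implies was between 0.948 and 1.06 times that sum. Median-of-ratios factors of the values were all 1. Reads assigned to genes numbered 15438305 to 17375656 per library, as recovered from the FPKM steps. Hair cell markers were present in every library although the labels describe complete hair cell loss after SM. The 16 markers summed to 920.0, 1005 and 1216 FPKM with BQ788 and 1063, 1004 and 1306 FPKM in SM control. CALB1 alone gave over 500 FPKM of that sum in each library. Supporting cell markers summed to 3603, 4374 and 5021 FPKM with BQ788 and 4580, 4732 and 5621 FPKM in SM control. The first SM plus BQ788 library stood apart. Its distance to the nearest library of its own group, a root mean square of log2 differences, was 0.341, against 0.304 to the first SM control library, while each of the 5 others lay nearest to its own group. Calls among the genes named below that change without that library are given beside their values.

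No gene of the 9 changed with BQ788 at an adjusted p of 0.05 by limma on log2(FPKM + 1), with p-values adjusted over all 11857 genes tested. Over those genes 2.99% passed, 2.24% lower and 0.751% higher with BQ788. Limma voom on the recovered reads also passed 0 of the 9, while calling 365 genes. At an unadjusted p of 0.05, 4 of the 9 passed, SOCS1, SOCS3, IRF8 and CEBPB, all of them lower with BQ788. The share of all genes tested that passed this looser threshold was 22.7%, and 11.9% did so in the lower direction. In the same 4 genes every SM plus BQ788 library was below every SM control library, a separation seen in 29.3% of all genes tested and in the lower direction in 14.1%. The median log2 fold change of the 9 genes was -0.30, against 0.02 over all genes tested, with 7 of the 9 below 0. Of all genes tested, 46.5% were below 0. The 9 genes were chosen with earlier results of these data known, so these comparisons with all genes may not be independent of those results. Because RNA was taken from whole epithelium, fewer cells that express a gene and less RNA per cell cannot be told apart.

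**Figure D1:**
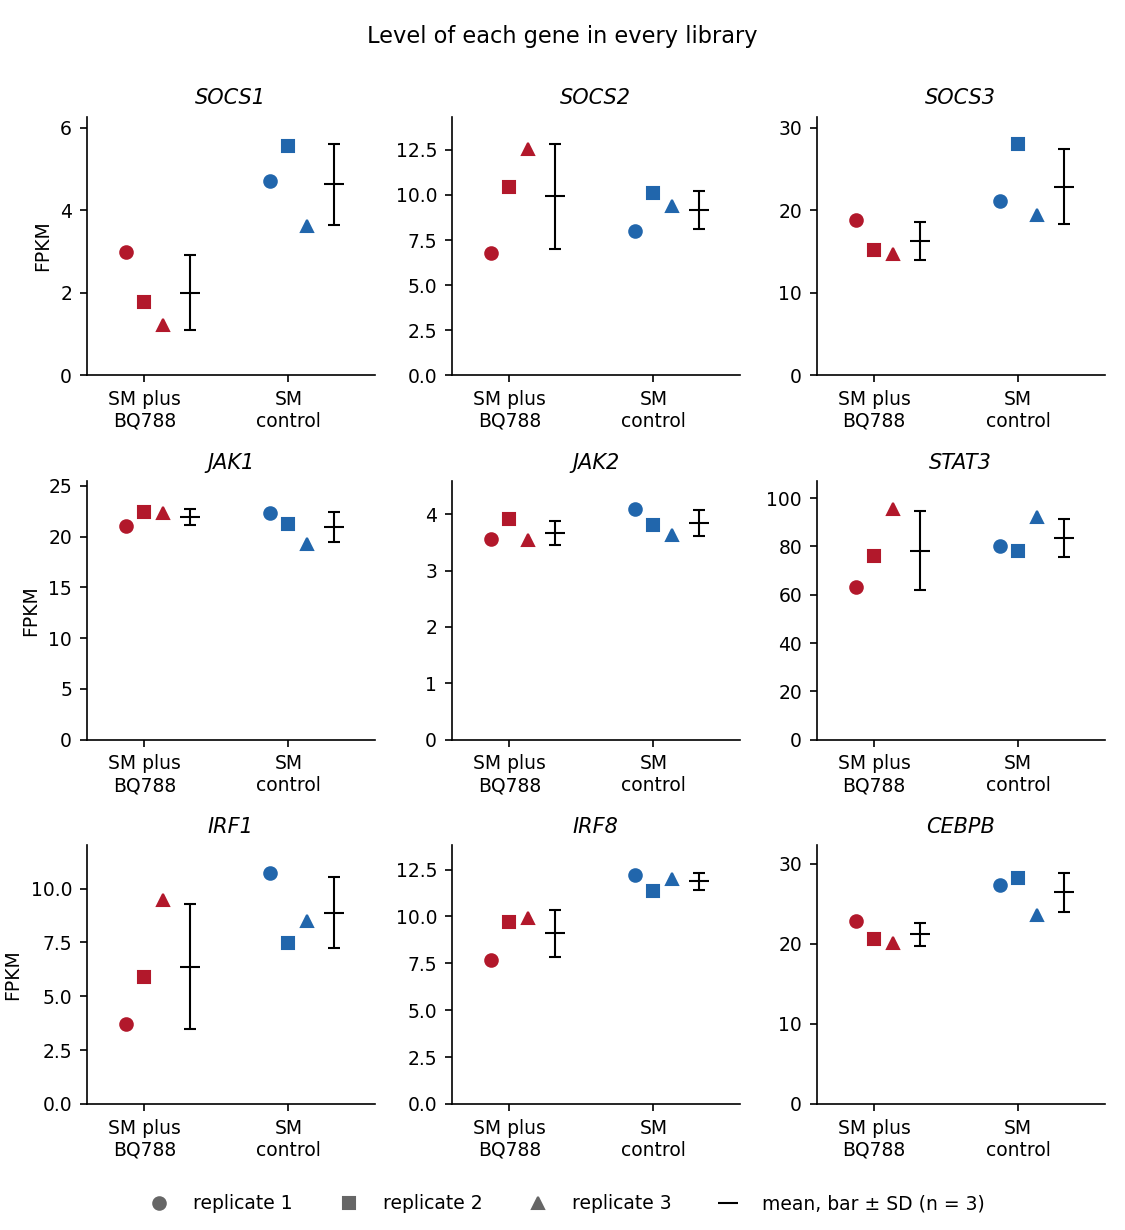
Level of each of the 9 genes in FPKM (vertical axes from 0), with SM plus BQ788 left and SM control right; symbols are the 3 replicates and bars the mean ± SD. The groups do not overlap for SOCS1, SOCS3, IRF8 and CEBPB, and the SOCS1 libraries lie between 1.22 and 2.99 FPKM with BQ788 and between 3.62 and 5.56 FPKM in SM control.

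SOCS1 binds the kinase domain of JAKs and is the main brake on interferon signalling in mammals. It had 2.99, 1.79 and 1.22 FPKM in SM plus BQ788, against 4.70, 5.56 and 3.62 FPKM in SM control. Every SM control library was above every SM plus BQ788 library, and the lowest value of the 6 was in the third SM plus BQ788 library. The means were 2.00 ± 0.904 FPKM with BQ788 and 4.63 ± 0.974 FPKM in SM control (SD, n = 3 each), a ratio of 0.433. On the log2(FPKM + 1) scale, which understates changes of low genes, SOCS1 differed by -0.93 (SE 0.23, 95% interval -1.49 to -0.38), with a limma p of 0.00585 and an adjusted p of 0.0872. Of all genes tested, 6.69% had a smaller p. An exact permutation test gave p = 0.1, the smallest that 3 against 3 libraries allow. Without the first SM plus BQ788 library the difference was -1.16 with a limma adjusted p of 0.0252, and this was the only library whose omission let 1 of the 9 genes pass.

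SOCS1 rested on few reads: the libraries held 123, 70 and 44 reads with BQ788 and 193, 202 and 133 in SM control. At 44 reads the exact 95% Poisson interval runs from 32.0 to 59.1. The counting error there, as 1 standard error, is 15.1%. The coefficient of variation between replicates was 45.2% with BQ788 and 21.1% in SM control. SOCS1 lies on the plus strand of chromosome 14 (GRCg7b, 8952774 to 8955462), and all 2689 bases of it fall within RMI2 on the minus strand. Whether the authors counted by strand is not given in the sources used here, so reads of the 2 genes may not be fully separated. RMI2 had 1.47, 1.15 and 1.15 FPKM with BQ788 and 1.49, 1.26 and 1.16 FPKM in SM control, a log2 difference of -0.03.

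SOCS3 binds the gp130 receptor chain and JAKs, is induced by STAT3 and ends interleukin-6-type signals. Its levels were 18.9, 15.2 and 14.7 FPKM with BQ788, against 21.1, 28.0 and 19.4 FPKM in SM control. The groups did not overlap, but the first SM plus BQ788 library and the third SM control library differed by little. Means were 16.3 ± 2.26 FPKM with BQ788 and 22.8 ± 4.55 FPKM in SM control (SD, n = 3 each), a ratio of 0.713. SOCS3 differed by -0.46 on the log2 scale (SE 0.15, 95% interval -0.82 to -0.09), with a limma adjusted p of 0.151 and an exact permutation p of 0.1. The gene lies at 10472830 to 10474859 on the plus strand of chromosome 18.

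SOCS2 restrains growth hormone and prolactin receptor signalling. It had 6.80, 10.4 and 12.5 FPKM with BQ788 and 8.01, 10.1 and 9.39 FPKM in SM control. The SM plus BQ788 libraries spanned the whole SM control range, holding both the lowest and the highest of the 6 values. The 95% interval of its log2 difference, 0.07 (limma adjusted p 0.875), runs from -0.42 to 0.56 and holds changes of either sign. The difference was -0.10 without the third SM plus BQ788 library, 0.29 without the first and -0.01 without the first SM control library, so its direction depends on which libraries are used.

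The kinases varied least of the 9 genes, with a root mean square deviation from their means of 0.0731 for JAK1 and 0.0611 for JAK2 in log2(FPKM + 1). JAK1, which serves interferon, gp130 and common gamma chain receptors, had 21.1, 22.5 and 22.4 FPKM with BQ788 and 22.3, 21.2 and 19.3 FPKM in SM control. JAK2, which serves growth hormone, prolactin and interferon gamma receptors, had 3.55, 3.91 and 3.54 FPKM with BQ788 and 4.10, 3.80 and 3.63 FPKM in SM control. Both sets of groups overlapped. The log2 difference of JAK1 was 0.07 (95% interval -0.10 to 0.24, limma adjusted p 0.623). That of JAK2 was -0.05 (95% interval -0.24 to 0.14, limma adjusted p 0.731). JAK1 lies at 27885691 to 27938586 on the minus strand of chromosome 8 and JAK2 at 27948291 to 28033831 on the plus strand of chromosome Z. Chromosome Z is a sex chromosome in birds, and genes of the female-specific chromosome W were read in every library, with sums of 74.2, 68.9 and 69.5 FPKM with BQ788 and 87.5, 84.5 and 80.4 FPKM in SM control. These W sums were lower in every SM plus BQ788 library than in every SM control library. PRLR and GHR, named below, also lie on chromosome Z. The part of the sex makeup in the JAK2, PRLR and GHR values was not tested.

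STAT3, the transcription factor that gp130 and LIF receptors activate, was the most abundant of the 9. It had 63.1, 75.9 and 95.6 FPKM with BQ788 and 80.0, 78.0 and 92.3 FPKM in SM control. The first SM plus BQ788 library was the lowest and the third the highest of the 6. Means were 78.2 ± 16.4 FPKM with BQ788 and 83.5 ± 7.77 FPKM in SM control (SD, n = 3 each). The log2 difference was -0.11 (95% interval -0.48 to 0.26, limma adjusted p 0.719), and it was 0.034 without the first SM plus BQ788 library. STAT3 lies at 4895063 to 4910486 on the minus strand of chromosome 27. FPKM measures the transcript and says nothing of STAT3 phosphorylation.

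IRF1 is induced by interferon gamma and activates antigen presentation and antiviral genes. Its levels were 3.73, 5.91 and 9.49 FPKM with BQ788 and 10.7, 7.45 and 8.49 FPKM in SM control. The third SM plus BQ788 library lay within the SM control range and the 2 others below it, so the groups overlapped. Means were 6.38 ± 2.91 FPKM with BQ788 and 8.89 ± 1.67 FPKM in SM control (SD, n = 3 each). The coefficient of variation was 45.6% with BQ788 and 18.8% in SM control. The log2 difference was -0.49 (SE 0.29, 95% interval -1.17 to 0.20, limma adjusted p 0.360). It was -0.20 without the first SM plus BQ788 library and -0.78 without the third. IRF1 lies at 16493644 to 16499641 on the minus strand of chromosome 13.

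IRF8 is known above all from macrophages and other myeloid and B cells, where it directs lineage and interferon responses. It had 7.67, 9.72 and 9.92 FPKM with BQ788, against 12.2, 11.4 and 12.02 FPKM in SM control. All 3 SM control libraries were above all 3 SM plus BQ788 libraries, and the lowest was the first SM plus BQ788 library. Means were 9.10 ± 1.25 FPKM with BQ788 and 11.9 ± 0.447 FPKM in SM control (SD, n = 3 each). The log2 difference was -0.36 (SE 0.10, 95% interval -0.60 to -0.11), with a limma adjusted p of 0.112 and an exact permutation p of 0.1. IRF8 lies at 17237123 to 17244589 on the minus strand of chromosome 11.

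Leukocyte markers, read beside IRF8, were mixed in direction. Of 37 macrophage and leukocyte markers, 31 were found, 18 were tested and 0 passed limma at an adjusted p of 0.05, with 8 below 0 against 10 above. At an unadjusted p of 0.05, 2 of the 18 passed, against 22.7% of all genes tested. FCER1G, an Fc receptor chain of myeloid cells, was 1 of those 2, with 0.570, 0.598 and 0.326 FPKM with BQ788 and 2.57, 1.29 and 0.956 FPKM in SM control (log2 difference -0.75, limma adjusted p 0.124). It was below 1 FPKM in every SM plus BQ788 library. FCER1G thus reached the mean of 1 FPKM needed for testing only through SM control, so its lower direction is not independent of that filter. MERTK, a receptor for dying cells and the other of the 2, went the other way, with 21.1, 14.5 and 18.9 FPKM with BQ788 and 13.3, 13.0 and 14.2 FPKM in SM control (log2 difference 0.39, limma adjusted p 0.157). The groups did not overlap in FCER1G and MERTK, 2 of the 18, while 29.3% of all genes tested had such a separation. None of the 31 was at 0 in every library. Their sum was between 144.5 and 180.3 FPKM with BQ788 and between 140.4 and 152.4 FPKM in SM control, and the highest sum was in the first SM plus BQ788 library, where IRF8 was lowest. CYBA was the most abundant of the 31, and abundant markers weigh most in this sum. The part of leukocytes in the IRF8 values was not tested. CSF1R, the receptor that defines macrophages, had 5.06, 2.45 and 2.42 FPKM with BQ788 and 2.78, 1.58 and 1.499 FPKM in SM control (log2 difference 0.52, limma adjusted p 0.302, and 0.25 without the first SM plus BQ788 library). PTPRC, the pan-leukocyte CD45, was below 1 FPKM in all 6 libraries. CSF1R and PTPRC were picked from the list as defining genes after their values were seen.

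CEBPB is a bZIP factor of acute phase and interleukin-6 responses. Its levels were 22.8, 20.6 and 20.1 FPKM with BQ788, against 27.4, 28.2 and 23.6 FPKM in SM control. The groups did not overlap, and the gap between them lay between the first SM plus BQ788 and the third SM control library. Means were 21.2 ± 1.44 FPKM with BQ788 and 26.4 ± 2.42 FPKM in SM control (SD, n = 3 each). The log2 difference was -0.30 (SE 0.09, 95% interval -0.51 to -0.09), with a limma adjusted p of 0.112 and an exact permutation p of 0.1. CEBPB lies at 14051150 to 14052880 on the minus strand of chromosome 20, and FAM65C on the plus strand overlaps it by 374 bases. FAM65C was below 0.6 FPKM in every library.

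**Figure D2:**
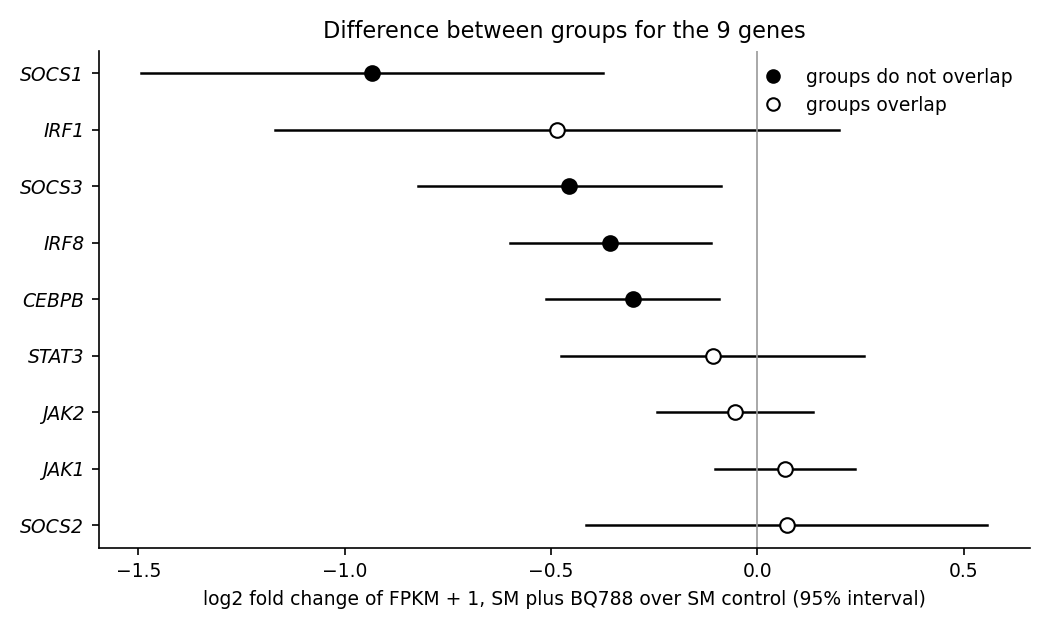
Log2 fold change of FPKM + 1, SM plus BQ788 over SM control (horizontal axis), for each of the 9 genes, with the 95% interval of the limma fit. Filled points mark genes whose groups do not overlap: SOCS1 at -0.93, SOCS3 at -0.46, IRF8 at -0.36 and CEBPB at -0.30.

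Per kilobase, the 9 transcripts ran from STAT3 at a mean of 80.8 FPKM over the 6 libraries to SOCS1 at 3.31 FPKM. Between them came CEBPB at 23.8 FPKM, JAK1 at 21.5, SOCS3 at 19.6, IRF8 at 10.5, SOCS2 at 9.54, IRF1 at 7.63 and JAK2 at 3.75 FPKM. STAT3 was above 94.4% of the genes tested and SOCS1 above 21.6%. Some neighbours in this order did not differ beyond the spread of the libraries. With BQ788 the ranges of CEBPB and JAK1 overlapped, as did IRF8 and SOCS2, SOCS2 and IRF1, and IRF1 and JAK2. In SM control JAK1 overlapped SOCS3, SOCS2 overlapped IRF1, and JAK2 overlapped SOCS1.

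The 9 genes did not share 1 order across the SM plus BQ788 libraries. SOCS1, SOCS3 and CEBPB were highest in the first of these libraries and lowest in the third. STAT3, SOCS2, IRF1 and IRF8 were lowest in the first and highest in the third. So were the sums of the hair cell and of the supporting cell markers, and the part of those cells was not tested. In deviations from each gene's mean over the 6 libraries, on the log2(FPKM + 1) scale, IRF1 stood at -0.81 in the first SM plus BQ788 library and 0.34 in the third, while SOCS1 stood at -0.01 in the first and -0.86 in the third. Within SM control, SOCS1, SOCS3 and CEBPB were all highest in the second library and lowest in the third. These orders describe single libraries and carry no test.

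**Figure D3:**
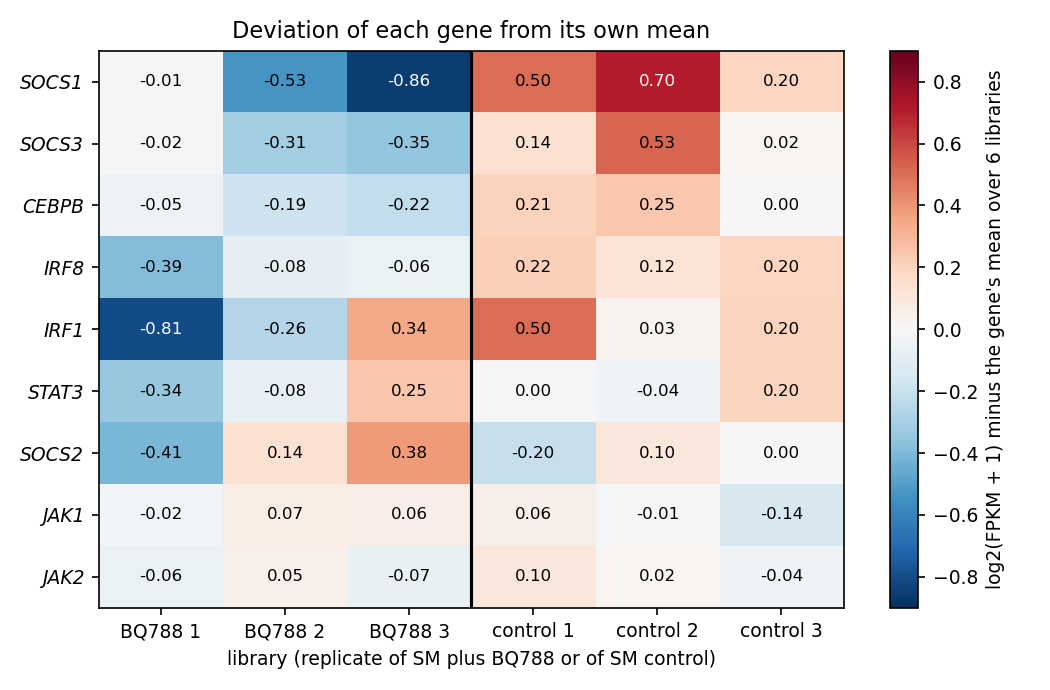
Deviation of each gene, in log2(FPKM + 1), from its own mean over the 6 libraries (red above, blue below), with SM plus BQ788 libraries left of the line and SM control libraries right. SOCS1, SOCS3 and CEBPB share 1 order within SM plus BQ788 and STAT3, SOCS2, IRF1 and IRF8 the opposite one.

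The genes with patterns most like each of the 9 were found by the root mean square distance between centred log2(FPKM + 1) values over the 6 libraries, which hold both groups. For SOCS1 these were IER5 at a distance of 0.112, HIST2H4B at 0.114 and ABHD8 at 0.120, where SOCS1 itself varied about its mean by 0.548. For SOCS3, with a variation of 0.294, they were CLCN2 and IGSF3, both at 0.0794, and HIST1H101 at 0.0834. CEBPB was followed most closely by ISM2 at 0.0249, ITGB6 at 0.0284 and LIMD1 at 0.0302, and IRF8 by PKP3 at 0.0430, NIF3L1 at 0.0474 and EFHD1 at 0.0486. IRF1 was nearest to MYH11 at 0.109, KCNQ1 at 0.165 and SERPINB5 at 0.169. STAT3 was nearest to TAOK3 at 0.0278, TNFAIP8L3 at 0.0282 and ARHGEF38 at 0.0327. SOCS2 was nearest to TOR4A, ANXA8L1 and GLIPR2, JAK1 to MGA and WDR62, and JAK2 to ADIPOR2, TRMT10C and ZBTB10.

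Among the other inhibitors of the pathway, SOCS4, a further SOCS box protein, fell with BQ788. It had 4.42, 4.65 and 4.50 FPKM with BQ788, against 6.80, 5.91 and 6.44 FPKM in SM control, a log2 difference of -0.42 (limma adjusted p 0.0424). The groups did not overlap, but leaving out any single library other than the first SM plus BQ788 one raised the limma adjusted p to between 0.111 and 0.161. SOCS4 was the 1 of 13 tested inhibitors (SOCS, PIAS and phosphatase genes) that passed, with 0 higher, where limma called 2.24% of all genes tested lower. The median log2 fold change of the 13 was 0.02, the same to 2 decimals as over all genes. CISH, the SOCS family member induced by STAT5, was the most abundant of them at 108.5, 169.1 and 150.4 FPKM with BQ788 and 162.7, 167.7 and 167.5 FPKM in SM control (log2 difference -0.24, limma adjusted p 0.407, and -0.057 without the first SM plus BQ788 library). The SOCS box works through a ubiquitin ligase, and 0 of its 5 tested partner genes passed, with a median of 0.14. All 5 were above 0, while 46.5% of all genes tested were below 0. At an unadjusted p of 0.05, 2 of the 5 passed, against 22.7% of all genes tested. The groups did not overlap in 3 of the 5, against 29.3% of all genes tested.

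Ligands of these receptors were mostly at low levels. Of 31 listed, 23 were found, 5 were tested and 0 passed limma. At an unadjusted p of 0.05, 1 of the 5 passed, against 22.7% of all genes tested. IL22, IL4, IL13, IL2, IL21, IFNA3 and PRL were at 0 in every library. LIF, a gp130 cytokine upstream of STAT3, had 7.03, 20.8 and 25.4 FPKM with BQ788 and 10.6, 13.3 and 15.0 FPKM in SM control. Its log2 difference was 0.27 with a limma adjusted p of 0.759, against 0.79 and 0.0350 without the first SM plus BQ788 library and -0.065 without the third. CSF1, the macrophage growth factor, which acts through a receptor tyrosine kinase and not through JAKs, had 3.58, 3.60 and 2.72 FPKM with BQ788 and 7.59, 6.29 and 4.89 FPKM in SM control (log2 difference -0.74, limma adjusted p 0.0634). Without the first SM plus BQ788 library CSF1 passed at -0.79 (limma adjusted p 0.0467). IL6, named after its values were seen and too low to be tested, had 0.303, 0.507 and 1.07 FPKM from 10, 16 and 31 reads with BQ788 and 0.0908, 0.0684 and 0.169 FPKM from 3, 2 and 5 reads in SM control.

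Of 31 cytokine receptors, 29 were found, 18 were tested, 1 fell and 0 rose with BQ788, with a median of 0.06. Limma called 2.24% of all genes tested lower and 0.751% higher. The one that fell was PRLR, the prolactin receptor, which signals through JAK2 and STAT5. It had 11.1, 9.42 and 9.80 FPKM with BQ788, against 19.7, 16.9 and 19.5 FPKM in SM control, a log2 difference of -0.82 (SE 0.09, limma adjusted p 0.0207). Leaving out any single library other than the first SM plus BQ788 one gave limma adjusted p-values between 0.0557 and 0.0979. IFNGR2, a chain of the interferon gamma receptor, was the most abundant at 73.2, 95.01 and 110.7 FPKM with BQ788 and 91.9, 96.6 and 93.6 FPKM in SM control. Its difference was -0.04, and 0.12 without the first SM plus BQ788 library. IL13RA1 differed by -0.35 (limma adjusted p 0.0941). GHR and IFNAR2 went the other way, at 0.22 and 0.14 (limma adjusted p 0.186 and 0.195), with groups that do not overlap. Such a separation was seen in 4 of the 18 receptors tested, against 29.3% of all genes tested. IFNAR1 was at 0.34 (limma adjusted p 0.244), with groups that overlap. Of the 18 receptors tested, 7 were below 0 and 11 above. Of 5 other JAK and STAT genes tested, 0 passed, also at an unadjusted p of 0.05.

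Other IRF and CEBP genes did not pass either, 0 of 9 tested and 0 at an unadjusted p of 0.05, with a median of -0.21. IRF7, the factor that amplifies type I interferon in birds, had 6.37, 8.25 and 12.5 FPKM with BQ788 and 11.2, 11.4 and 10.8 FPKM in SM control (log2 difference -0.31, limma adjusted p 0.415). The difference was -0.11 without the first SM plus BQ788 library and -0.55 without the third. As for IRF1, the first SM plus BQ788 library was the lowest of the 6. CEBPD, an acute phase factor related to CEBPB, had 30.0, 21.6 and 14.5 FPKM with BQ788 and 35.1, 38.7 and 24.5 FPKM in SM control (log2 difference -0.58, limma adjusted p 0.267, and -0.32 without the third SM plus BQ788 library).

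Genes that interferons switch on were tested as 30 of 54 listed, and 0 passed in either direction. Of the 30, 9 had an unadjusted p of 0.05 or less, 21 were below 0 and the median was -0.06. Over all genes tested, 22.7% had such a p, 46.5% were below 0 and the median was 0.02. The smallest p-values were those of UBE2L6, in mammals the enzyme that conjugates ISG15, at a log2 difference of 0.46 (limma adjusted p 0.0572, and 0.0442 without the first SM plus BQ788 library), and USP41, a ubiquitin-specific protease, at -0.50 (limma adjusted p 0.0665). MOV10, an RNA helicase, differed by -0.46 (limma adjusted p 0.0811) and IFI27L2 by -0.60 (limma adjusted p 0.0848). The summed level of all 39 found was 220.3, 239.5 and 201.9 FPKM with BQ788 and 297.4, 300.1 and 214.8 FPKM in SM control.

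The third SM control library differed from the 2 others in several of these antiviral genes, which were named after their values were seen. IFI6 had 4.99, 8.91 and 9.85 FPKM with BQ788 and 47.4, 42.3 and 8.61 FPKM in SM control. IFIT5, the IFIT protein of birds, had 6.21, 12.7 and 4.37 FPKM with BQ788 and 19.7, 19.98 and 3.45 FPKM in SM control. RSAD2, the antiviral enzyme viperin, had 0.630, 1.75 and 0.234 FPKM with BQ788 and 2.97, 3.21 and 0.245 FPKM in SM control. With a mean of 0.871 FPKM with BQ788, RSAD2 reached the mean of 1 FPKM needed for testing only through SM control. In all 3 genes the first and second SM control libraries were high and the third lay within or below the SM plus BQ788 range. The limma adjusted p was 0.183 for IFI6, 0.623 for IFIT5 and 0.517 for RSAD2. Their log2 differences were -1.66 for IFI6, -0.62 for IFIT5 and -0.64 for RSAD2, against -2.41, -1.36 and -1.21 without the third SM control library (limma adjusted p 0.0675, 0.176 and 0.172). Without the first or the second SM control library IFIT5 was at -0.25 or -0.24 and RSAD2 at -0.37 or -0.33, and without the third SM plus BQ788 library IFIT5 was at -0.32 and RSAD2 at -0.38. Without the second SM plus BQ788 library IFIT5 was at -1.001 and RSAD2 at -0.96. IRF1 and IRF8 did not have this order within SM control.

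**Figure D4:**
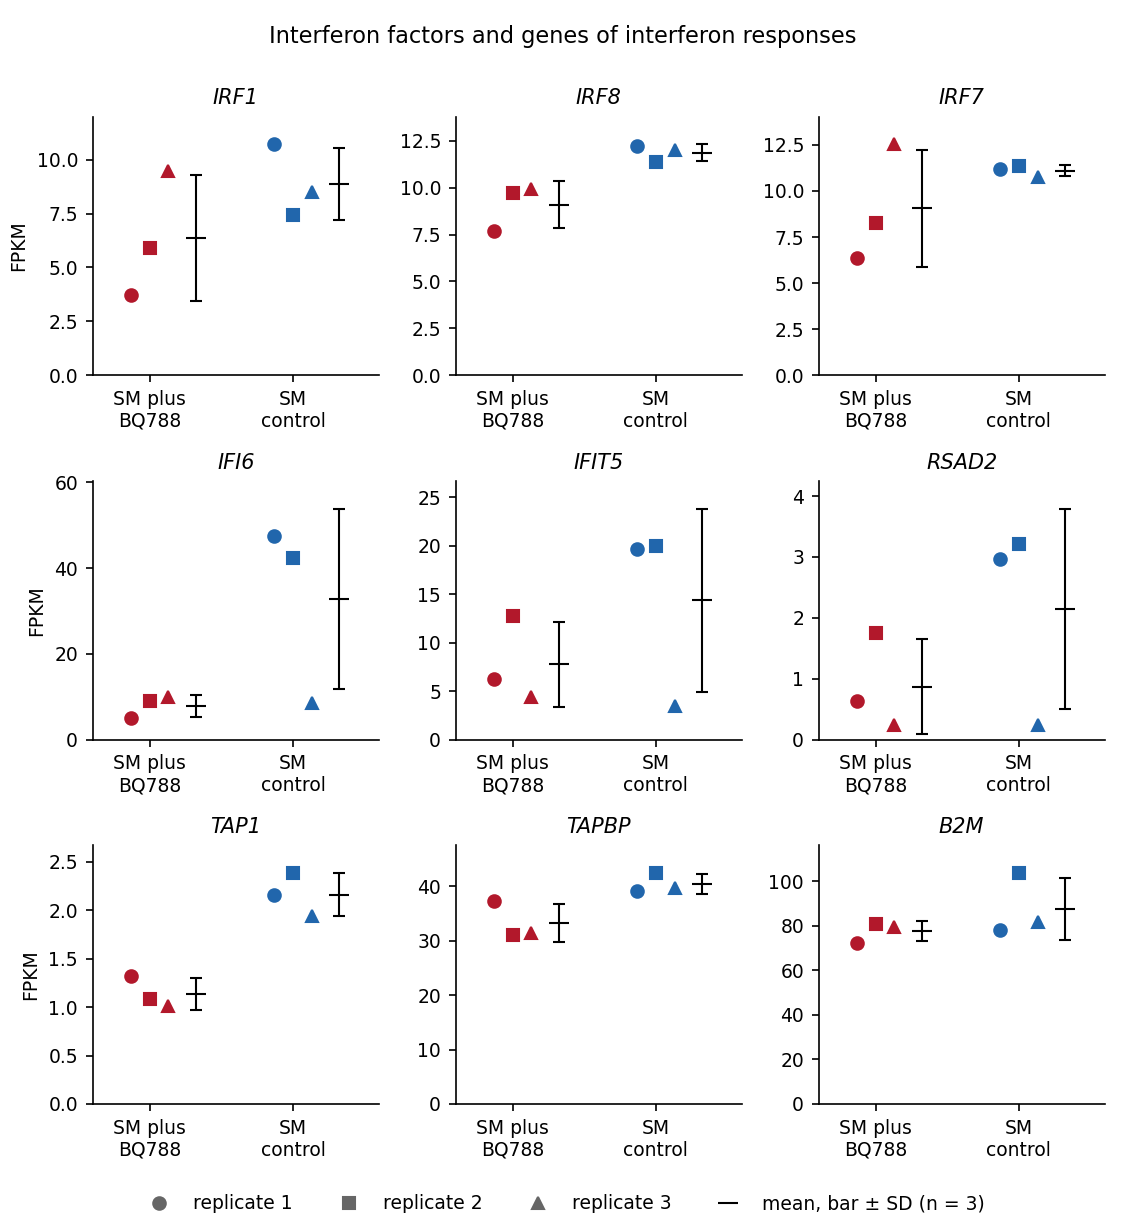
FPKM (vertical axes from 0) of 3 interferon factors, 3 antiviral genes and 3 antigen presentation genes in SM plus BQ788 (left) and SM control (right); symbols are the 3 replicates and bars the mean ± SD. IFI6, IFIT5 and RSAD2 are high in SM control libraries 1 and 2 and low in 3, while the groups do not overlap for IRF8, TAP1 and TAPBP.

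Antigen presentation genes were below 0 in 12 of 13 tested, with a median log2 fold change of -0.28, and 7 had an unadjusted p of 0.05 or less. Over all genes tested, 46.5% were below 0, 22.7% had such a p and limma called 2.24% lower at an adjusted p of 0.05. The 1 tested gene above 0 was BF2, at 0.10 (limma adjusted p 0.449). NLRC5, named after its values were seen and too low to be tested, was higher with BQ788. It had 0.657, 0.701 and 0.670 FPKM with BQ788 and 0.640, 0.509 and 0.470 FPKM in SM control. CIITA and DMB1, also found and not tested, had at most 15 reads in any library. Most of the 13 lie close together on chromosome 16, between 2185532 and 2229465: BLB1, TAPBP, BLB2, DMA, DMB2, BF1, TAP1, TAP2 and BF2. All of these except BF2 were below 0, so the 12 genes below 0 come largely from 1 stretch of the genome. One passed limma: TAP1, a subunit of the transporter that carries peptides to MHC class I, fell to 1.32, 1.08 and 1.01 FPKM with BQ788, against 2.16, 2.38 and 1.95 FPKM in SM control. TAP1 rested on few reads, 54, 42 and 36 with BQ788 and 88, 86 and 71 in SM control. Its log2 difference was -0.57 (limma adjusted p 0.0442), and the adjusted p lay between 0.118 and 0.174 when any single library other than the first SM plus BQ788 one was left out. TAPBP, which loads those peptides, had 37.2, 31.1 and 31.5 FPKM with BQ788 and 39.1, 42.4 and 39.6 FPKM in SM control (log2 difference -0.28, limma adjusted p 0.125), and without the first SM plus BQ788 library it passed at -0.36 (limma adjusted p 0.0280). PSME1, a proteasome activator subunit, differed by -0.34 (limma adjusted p 0.133). DMB2, of the MHC class II loading complex, differed by -0.58 (limma adjusted p 0.0872). Its mean was 0.783 FPKM with BQ788, from 16, 29 and 19 reads, and 1.67 FPKM in SM control. DMB2 thus reached the mean of 1 FPKM needed for testing only through SM control, so its lower direction is not independent of that filter. B2M, the MHC class I light chain and the most abundant of the list, had 72.3, 80.9 and 79.3 FPKM with BQ788 and 77.9, 103.6 and 81.5 FPKM in SM control.

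Known STAT3 targets and acute phase genes gave 1 call among 22 tested, lower with BQ788, and a median of -0.21. Over all genes tested, limma called 2.99% and the median was 0.02. A2M, the protease inhibitor alpha-2-macroglobulin, fell to 18.1, 15.1 and 13.1 FPKM with BQ788, against 24.2, 26.9 and 23.9 FPKM in SM control. Its log2 difference was -0.67 (limma adjusted p 0.0415), and the adjusted p lay between 0.0910 and 0.167 when any single library other than the first SM plus BQ788 one was left out. GADD45B, a stress response gene, had 47.3, 70.8 and 69.6 FPKM with BQ788 and 81.3, 81.3 and 83.0 FPKM in SM control (log2 difference -0.41, limma adjusted p 0.186). Without the first SM plus BQ788 library it passed at -0.22 (limma adjusted p 0.0476). PIM1, a kinase, differed by -0.26 (limma adjusted p 0.160) and MYC by -0.22 (limma adjusted p 0.190). The groups did not overlap in A2M, GADD45B, PIM1 and MYC, 4 of the 22, while 29.3% of all genes tested had such a separation. At an unadjusted limma p of 0.05, 5 of the 22 passed, against 22.7% of all genes tested. Limma voom on recovered reads passed SOCS4, PRLR and A2M (adjusted p 0.0309, 0.0138 and 0.0374) but not TAP1 (adjusted p 0.0520), and passed 0 of the other genes in these lists.

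**Figure D5:**
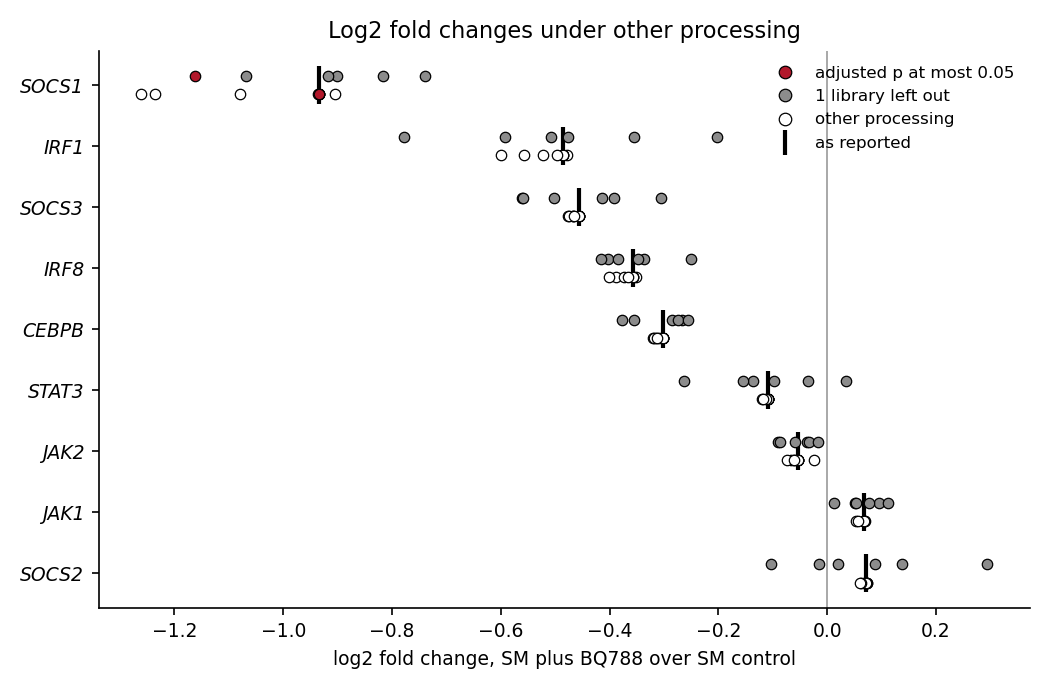
Log2 fold change of each of the 9 genes, SM plus BQ788 over SM control (horizontal axis), as reported (bars), with 1 library left out (upper points) and with other processing (lower points). SOCS1, IRF1, SOCS3, IRF8 and CEBPB stay below 0 throughout. Leaving out 1 library could not change the sign of SOCS1, SOCS3, IRF8 or CEBPB, whose groups do not overlap. The red points mark an adjusted p of at most 0.05, reached by SOCS1 in 2 settings.

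Over 16 or 17 alternative settings each, the 5 genes with the lowest values kept their sign. Settings that change only the filter, the eBayes options or the replicate block leave the log2 fold change as it is, as did median-of-ratios scaling. The groups do not overlap for SOCS1, SOCS3, IRF8 and CEBPB. For these genes, leaving out 1 library or adding a constant other than 1 to the FPKM could not move the sign either. Only settings that rescale the libraries could have done so. For IRF1, whose groups overlap, the fits with 1 library left out or another constant were also free to move it. SOCS1 ranged from -1.26 to -0.74, SOCS3 from -0.56 to -0.31, IRF8 from -0.42 to -0.25, CEBPB from -0.38 to -0.26 and IRF1 from -0.78 to -0.20. Their limma adjusted p-values ranged from 0.0252 to 0.255 for SOCS1, 0.0659 to 0.364 for SOCS3, 0.0619 to 0.283 for IRF8, 0.0544 to 0.309 for CEBPB and 0.151 to 0.639 for IRF1. Markers of other cells were lower with BQ788 beside these genes in several lists. Of 13 hair cell markers tested, 11 were below 0, with a median log2 fold change of -0.34, 9 at an unadjusted p of 0.05, 0 past limma and 1 past limma voom. Over all genes tested, 46.5% were below 0, 22.7% passed an unadjusted p of 0.05 and limma called 2.24% lower. Schwann cell and neuron markers gave 3 calls among 8 tested, all lower, with a median of -0.31 and sums between 75.5 and 101.4 FPKM with BQ788 and between 94.99 and 111.1 FPKM in SM control. Limma called 1 of 18 supporting cell markers lower (median -0.19), 1 of 16 mesenchymal markers (median -0.05) and 1 of 6 melanocyte markers (median -0.33), and no marker in these lists was called higher. Mesenchymal markers, 17 of 17 found, summed to 381.9, 153.4 and 197.7 FPKM with BQ788 and 338.5, 289.3 and 257.7 FPKM in SM control. Endothelial markers summed to between 29.3 and 38.2 FPKM with BQ788 and between 37.4 and 40.9 FPKM in SM control, and melanocyte markers to between 12.3 and 16.2 FPKM with BQ788 and between 21.9 and 24.6 FPKM in SM control. Of the erythroid markers, 5 of 7 found were at 0 in every library. The part of these cells in the values of the 9 genes was not tested.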

How the data were processed

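The authors deposited 1 table of FPKM values per gene, 1 column per library. The submitters' processing notes name fastp and the build GRCg7b, while the sources used here do not name the aligner, the counter or any use of strand. Values times gene length were multiples of 1 step per library, every one within 0.01 of a whole read, so reads could be recovered. The 9 genes and all lists were chosen with earlier results of these data known. FPKM values were tested as log2(FPKM + 1) with limma 3.58.1 in R 4.3.3 (trended eBayes, two-sided) where a gene averaged 1 FPKM or more, adjusted by Benjamini-Hochberg over all genes tested at 0.05, and the script was tested on simulated data. Named genes were the 9, the listed genes past that threshold, up to 4 more per list with the smallest p, the most abundant of a list, and the 3 most like each of the 9. Some genes that this rule names are not reported here. Gene identifiers matched the reference table for 25616 of 25619 genes. Each library is 1 sample, and depth limits low genes: 3 reads in a gene of 1 kb equal 0.169 to 0.193 FPKM. Intervals on reads cover counting error only.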

Additional observations from a re-analysis of the deposited data

How the results depend on the processing

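Counts of genes past the threshold depended on the settings. The 355 genes (89 higher, 266 lower) became 68 (12 higher, 56 lower) without a filter on low values and 220 (47 higher, 173 lower) with plain totals of recovered reads, a setting chosen after seeing the data. With plain totals SOCS4, TAP1 and A2M did not pass (limma adjusted p 0.0635, 0.0670 and 0.0701), while PRLR did (limma adjusted p 0.0277). Without the filter SOCS4, TAP1 and A2M did not pass either, and PRLR did. Without the eBayes trend 59 were higher. Leaving out single libraries gave 1 to 1311 genes, 0 to 626 higher and 1 to 685 lower: 1311 without the first SM plus BQ788 library, 1 without the second, 21 without the third and 1 without each SM control library in turn. The number of the 9 genes past the threshold was 0 to 1, the 1 being SOCS1 without the first SM plus BQ788 library, and over these fits SOCS1 ranged from -1.16 to -0.74. Of the results of the 9 genes under alternatives, 146 kept direction and call, 2 (both SOCS1) passed the threshold and 3 reversed: STAT3 at 0.034 without the first SM plus BQ788 library (leave-one-out range -0.26 to 0.034), and SOCS2 at -0.10 without the third SM plus BQ788 library and -0.01 without the first SM control library (range -0.10 to 0.29). Among the other genes, IFNGR2 reversed to 0.12 without the first SM plus BQ788 library (range -0.17 to 0.12) and LIF to -0.065 without the third (range -0.065 to 0.79). The cause was not tested.

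Replicate numbers were not taken to pair the libraries, because the correlations of same-numbered deviations were 0.50, 0.07 and 0.57 and 4 of 6 libraries correlated best with their own number. As a hint from the data, the nearest library of the other group had the same number for all 6. With the replicate block 749 genes passed (240 higher, 509 lower), 1 of the 9 among them, SOCS1 at -0.93 with a limma adjusted p of 0.0379. CSF1, IFI27L2, MOV10, DMB2, CSF1R and UBE2L6 passed with the block and not without it, at adjusted p-values of 0.0282, 0.0345, 0.0365, 0.0423, 0.0424 and 0.0426. Median-of-ratios factors were all 1, so that setting could change nothing, although it counts among the alternatives. Filters, eBayes options and the replicate block could change calls but not log2 fold changes. At a mean of at least 5 FPKM SOCS1 and JAK2 were not tested. The planned tests with other count tools were not run on FPKM, nor was the motif search, for want of promoter sequence.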

Other observations

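NF-kappa B, another main arm of damage responses, controls inflammatory genes that did not pass the test here. Of 22 tested, 0 passed limma or limma voom at an adjusted p of 0.05. At an unadjusted limma p of 0.05, 1 of the 22 passed, against 22.7% of all genes tested. The median log2 fold change of the 22 was -0.03. The summed level of all 29 found, tested or not, was 228.1, 236.3 and 247.5 FPKM with BQ788 and 251.8, 244.9 and 234.8 FPKM in SM control. IL18 had the smallest p, at 2.52, 2.02 and 2.13 FPKM with BQ788 and 3.11, 2.65 and 2.67 FPKM in SM control (log2 difference -0.24, limma adjusted p 0.214).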
